A study of Mus musculus with 8 samples.

Results

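The genes described here encode the chains of 2 families of adhesion proteins, the integrins and the laminins. Members were taken by name from the arrays' gene names: those starting with Itga or Itgb followed by digits or letters, without the binding protein genes named after Itgb1 and Itgb3, and those naming a laminin alpha, beta or gamma chain. This gave 38 of 27672 gene names, on 83 probes, and 28 of the 38 had a probe bright enough to be tested, of 17191 genes tested in all. Of the 38 names, 35 are integrin or laminin chains. The other 3, Itgb4bp (the translation factor now called Eif6), Itgb2l and Itgbl1, are held by the name pattern. Only Itgb4bp of these was tested, and it is included in the counts over the 28 tested members below.

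RNA was measured in R1 cells, an established line of mouse embryonic stem cells, grown on gelatin in medium with serum replacer. The butyrate group (n = 4 samples) was kept for 15 passages in medium with 0.2 mM of sodium butyrate, an inhibitor of histone deacetylases, and received no leukaemia inhibitory factor (LIF), while the LIF group (n = 4 samples) grew with that cytokine, without feeder cells and without butyrate. The 2 groups thus differed in both agents, and both come from 1 cell line. Each of 4 Agilent 2-colour whole-genome arrays on 1 slide held the butyrate and the LIF sample of 1 replicate number, always with butyrate in Cy5 and LIF in Cy3, so that dye and treatment cannot be told apart. The replicates are called independent, but no separate derivation is named, so the p-values speak only for the spread of these samples, part of which may be technical.

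An integrin is a receptor of 1 alpha and 1 beta chain in the cell membrane: it binds matrix proteins or other cells outside and, through talin and kindlin, the actin skeleton inside. A laminin is an alpha, a beta and a gamma chain wound together, and laminins form the sheet-like scaffold of basement membranes, which the early embryo lays down around implantation. Embryonic stem cells are known to hold on to laminin and fibronectin through integrins that contain the beta chain encoded by Itgb1.

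The RefSeq promoter windows of 4 members are shown first, since these members had the largest changes with a window in the sequence table. Each is the 250 bases before an annotated start on the gene's own strand, in build GRCm38.p6 (the first listed where a gene had several), and capitals mark GC boxes read in the direction shown or on the other strand (GGGCGG or its reverse complement). They lie at chr9:62677605-62677854 on the plus strand (Itga11), chr11:95076715-95076964 on the minus strand (Itga3), chr8:128685404-128685653 on the plus strand (Itgb1) and chr15:102231936-102232185 on the minus strand (Itgb7). The Itgb7 window lies inside the gene's annotated span (102215994 to 102233405), before a start within the gene. Among the windows not shown, those of Itga9, Itgav and Lamb3 also lie inside their genes.
Itga11: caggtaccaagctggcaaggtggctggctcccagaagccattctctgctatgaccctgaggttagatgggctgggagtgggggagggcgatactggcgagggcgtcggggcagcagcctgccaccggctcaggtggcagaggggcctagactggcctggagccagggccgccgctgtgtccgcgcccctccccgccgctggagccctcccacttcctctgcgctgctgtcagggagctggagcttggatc
Itga3: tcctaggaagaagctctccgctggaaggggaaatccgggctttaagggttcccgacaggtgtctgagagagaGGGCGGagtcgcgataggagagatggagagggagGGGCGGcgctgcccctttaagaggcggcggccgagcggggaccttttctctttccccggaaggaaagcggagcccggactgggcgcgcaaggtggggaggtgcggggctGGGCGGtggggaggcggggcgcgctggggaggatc
Itgb1: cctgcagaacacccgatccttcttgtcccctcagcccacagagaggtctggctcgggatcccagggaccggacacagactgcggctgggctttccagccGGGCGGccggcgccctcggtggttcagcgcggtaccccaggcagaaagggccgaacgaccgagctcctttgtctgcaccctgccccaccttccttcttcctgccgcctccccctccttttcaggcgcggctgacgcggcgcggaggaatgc
Itgb7: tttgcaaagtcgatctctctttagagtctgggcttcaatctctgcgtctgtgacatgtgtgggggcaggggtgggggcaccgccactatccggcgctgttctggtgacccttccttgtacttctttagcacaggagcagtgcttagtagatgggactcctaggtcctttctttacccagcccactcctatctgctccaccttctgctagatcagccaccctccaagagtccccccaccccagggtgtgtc
Itga3 held 3 GC boxes and Itgb1 held 1, while Itga11 and Itgb7 held none. Of the 38 members 24 had a window, and 8 of the 24 held a GC box, against 32.9% of 27025 genes. None of the 24 held TATAAA on either strand (13% of all genes), 3 held CCAAT (34.5%), and 1, Itgax, held the AP-1 letters TGANTCA (6.87%). The windows of the members had a median GC content of 57.0% and a median of 10 CpG, compared with 52.0% and 6 CpG over all genes. These are matches of letters and no measured binding sites.

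Integrin and laminin chain genes were mostly higher in butyrate. Of the 28 tested, 20 were higher and 2 lower at an adjusted p under 0.05 (limma, Benjamini-Hochberg over all genes), while 6 did not pass. Among the 27 of them that are chains, 20 were higher, 2 lower and 5 did not pass. Over all genes tested 75% passed, 41.7% higher and 33.3% lower, so that a call by itself is common on these arrays. At least 2-fold changes were rarer, with 4.97% of all genes higher and 1.97% lower by that much. Among the members 4 were at least 2-fold higher, with Itga11, Itga3 and Itgb1 in the lead, and 1, Itgb7, was at least 2-fold lower. The median log2 ratio of butyrate over LIF was 0.38 over the 28 tested members and 0.46 over the 27 tested that are chains, compared with 0.03 over all genes tested, and the median absolute log2 ratio was 0.52 for the members and 0.25 for all genes. In RNA from whole cultures, more cells of a type that uses a gene and more of its RNA per cell cannot be told apart.

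All 4 butyrate samples lay above all 4 LIF samples for 20 tested members and below them for 2, where 38.6% and 29.4% of all genes did so. These were the same 20 and 2 genes that passed the test. Itgb8, one of the 20, entered the test through its butyrate signal only, being well above background on 4 of 4 arrays in butyrate and 1 of 4 in LIF. The other 27 tested members were well above background in both channels on all 4 arrays. The 10 members too dim to be tested were Itga1, Itga2, Itga4, Itga10, Itgam, Itgax, Itgb6 and Lama2 among the chains, and Itgb2l and Itgbl1 among the rest.

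**Figure D1:**
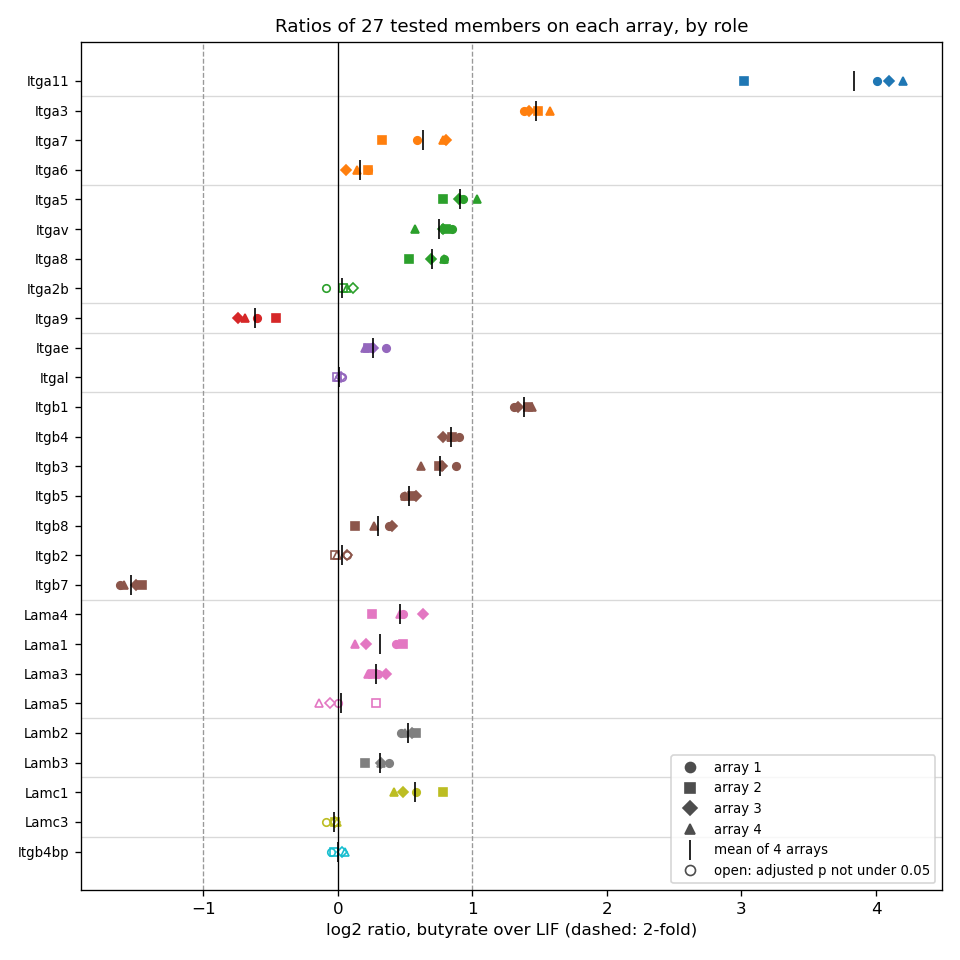
Log2 ratios of butyrate over LIF (x axis) for 27 tested members (rows, grouped by role and coloured by group), with 1 symbol for each of the 4 arrays, a bar for the mean, open symbols where the adjusted p was not under 0.05 and dashed lines at 2-fold. Itga11 lies far to the right with a mean of 3.84, and Itgb7 is the only member left of the lower 2-fold line.

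**Figure D2:**
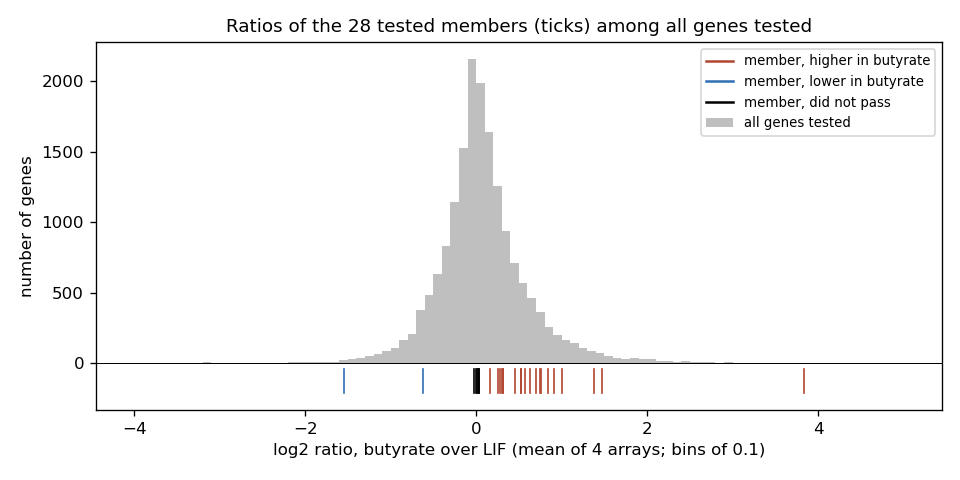
Number of genes (y axis) by log2 ratio of butyrate over LIF (x axis, bins of 0.1) for all 17191 genes tested, with the 28 tested members as ticks under the axis. Most ticks lie right of 0, at a median of 0.38, and that of Itga11 stands alone on the right.

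Among the collagen-binding alpha chains, Itga11 had by far the largest change of the family. Its normalised log2 level, the channel's intensity after background correction and loess, was 10.86, 10.74, 10.76 and 10.91 in the butyrate samples, against 6.85, 7.71, 6.66 and 6.71 in the LIF samples. The groups did not overlap, and the third highest ratio among all genes tested belonged to this gene, which encodes the collagen receptor chain of fibroblasts and other mesenchymal cells. Itga11 was 14.3-fold higher in butyrate (log2 ratio 3.84 ± 0.55, SD, n = 4 arrays, adjusted p = 4.93e-07). The size of this change depended on the processing: the mean log2 ratio was 4.36 with no background correction, 4.41 with median centring in place of loess, 5.75 in the scanner software's own values and 5.73 in the authors' value table. The other collagen-binding chains, Itga1, Itga2 and Itga10, were too dim to test, with mean log2 levels from 6.17 to 6.33 in butyrate and from 6.17 to 6.46 in LIF.

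The ratio of Itga11 was lower on array 2, at 3.02, than on the other arrays, at 4.01, 4.1 and 4.2, through the LIF level of that array and not the butyrate level. Before any correction, the Itga11 spot in the LIF channel had a mean signal of 63.4, 60.6, 57.3 and 60.7 on arrays 1 to 4 over a local background of 45.0, 43.5, 44.0 and 43.0, while the butyrate channel had 2380, 2220, 2190 and 2450. The uncorrected LIF signal on array 2 therefore lay within the range of the other arrays. In the scanner software's log2 ratios array 2 gave 5.54, and the others 5.64, 5.96 and 5.85. The normalised LIF levels of array 2 stood out more widely: of 115 genes at least 4-fold higher in butyrate, 90 had their highest LIF level there. Their LIF level on that array was a median of 0.28 above the mean of the other 3, while the median over all genes tested was 0. Without array 2 the log2 ratio of Itga11 was 4.11.

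**Figure D3:**
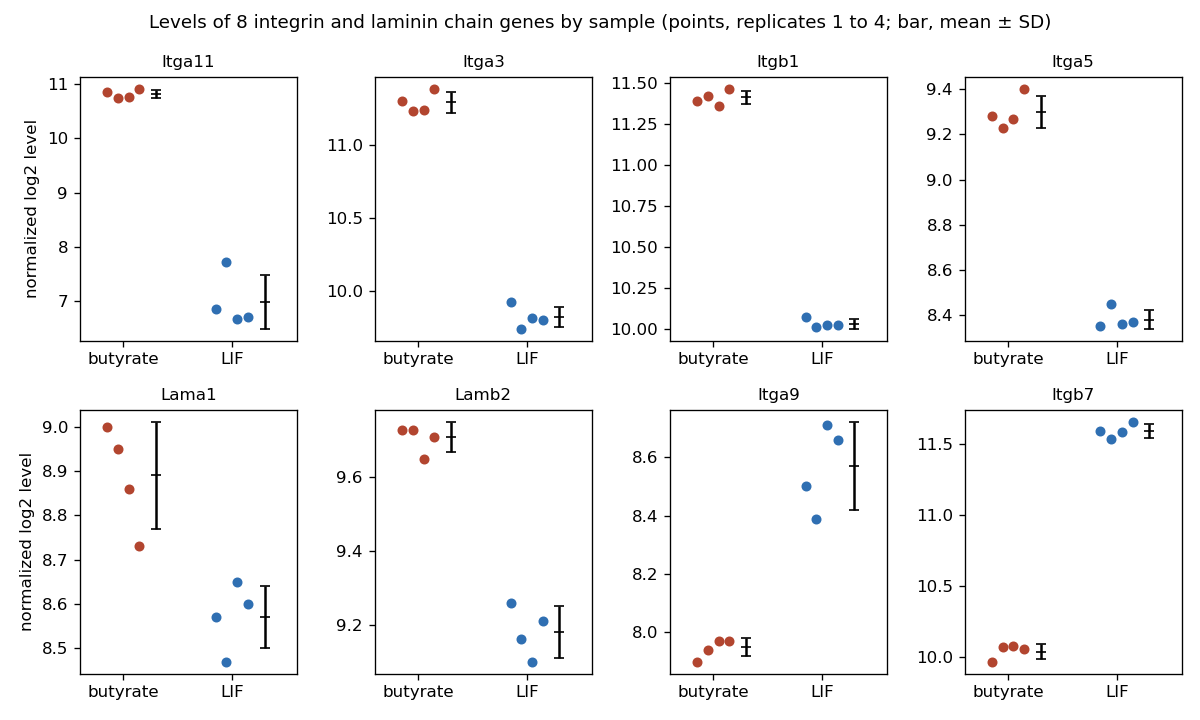
Normalised log2 levels (y axis, scaled separately in each panel) of 8 members in the butyrate and LIF samples, with points for replicates 1 to 4 from left to right and a bar for mean ± SD (n = 4). The groups are apart in all 8 panels, with butyrate above LIF for Itga11, Itga3, Itgb1, Itga5, Lama1 and Lamb2 and below it for Itga9 and Itgb7.

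All 3 laminin-binding alpha chains passed the test and were higher in butyrate. Itga3, whose product binds laminins of epithelial basement membranes, had log2 levels of 11.30, 11.23, 11.24 and 11.38 in butyrate and 9.92, 9.74, 9.81 and 9.80 in LIF. The groups lay more than 1 log2 unit apart on every array, and Itga3 was 2.77-fold higher (log2 ratio 1.47 ± 0.09, adjusted p = 6.5e-08). Its other tested probes gave log2 ratios of 1.31 and 0.25, so the size, though not the direction, depended on the probe. Itga7, a laminin receptor chain best known from muscle, had a log2 ratio of 0.63 ± 0.22, ranging from 0.33 on array 2 to 0.80 on array 3, and its second probe gave 0.44. Itga6 encodes the laminin receptor chain that embryonic stem cells are known to carry in quantity. It was bright in both groups, at 12.29 ± 0.02 in butyrate and 12.13 ± 0.08 in LIF, and its ratio was small at 0.16 ± 0.07 (adjusted p = 0.00625). It did not pass in the authors' value table (0.11, adjusted p = 0.0563).

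Of the 4 alpha chains that bind the RGD motif of fibronectin, vitronectin and related ligands, 3 were higher and 1 did not pass. Itga5, the fibronectin receptor chain, had log2 levels of 9.28, 9.23, 9.27 and 9.40 in butyrate, against 8.35, 8.45, 8.36 and 8.37 in LIF. The samples of each group lay close together, and Itga5 was 1.88-fold higher (log2 ratio 0.91 ± 0.10, adjusted p = 7.69e-07). Itgav, which joins several beta chains to bind vitronectin, had a log2 ratio of 0.75 ± 0.13, and a second, dimmer probe gave 0.20. Itga8, the nephronectin receptor chain needed in kidney development, had a ratio of 0.70 ± 0.12, and 0.58 on its second tested probe. Itga2b, the platelet fibrinogen receptor chain, was dim, with overlapping groups at 6.87 ± 0.06 in butyrate and 6.84 ± 0.06 in LIF, and the 95% interval of its log2 ratio ran from −0.07 to 0.13.

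Itga9, a receptor chain for tenascin and related ligands that is needed in lymphatic vessels, was one of the 2 members that fell. Its log2 levels were 7.90, 7.94, 7.97 and 7.97 in butyrate and 8.50, 8.39, 8.71 and 8.66 in LIF. No sample of one group reached the other, and Itga9 was 1.54-fold lower in butyrate (log2 ratio −0.62 ± 0.12, adjusted p = 1.16e-05). With each array centred on its median without loess, the ratio was −0.13 and no longer passed (adjusted p = 0.356). The median over all genes tested was 0.40 under that setting and 0.03 with loess. Itga4, its nearest relative, was not tested: none of its 6 probes passed the filter.

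Of the 4 leukocyte alpha chains, 1 was higher, 1 did not pass and 2 were too dim to test. Itgae, the E-cadherin receptor chain of T cells in epithelia, had log2 levels of 8.34, 8.26, 8.26 and 8.26 in butyrate and 7.98, 8.05, 8 and 8.06 in LIF. The groups were apart by a small step, with a log2 ratio of 0.26 ± 0.07 (adjusted p = 0.000456). Genes of chromosome 11, which holds Itgae, had a median log2 ratio of 0.21, which was 0.19 above that of the other autosomes, and with the chromosome's median taken off Itgae no longer passed (0.05, adjusted p = 0.255). The same chromosome holds Itga3, Itgb4 and Itgb3, which were still higher with that median taken off (1.26, 0.64 and 0.55), and Itga2b, which was then lower (−0.17). Itgal, a chain of the lymphocyte receptor for ICAM proteins, did not pass on its brightest probe (log2 ratio 0.01, 95% interval −0.07 to 0.09). Itgam and Itgax, chains of myeloid cells, were not tested. Of 11 marker genes of blood cells 7 were tested, of which 4 were higher and 1 lower, where 41.7% and 33.3% of all genes were. Csf1r (0.99 ± 0.31), Cd34 (0.94 ± 0.09) and Runx1 (0.41 ± 0.10) were higher, as was Lyz2 (0.22 ± 0.11), which entered the test through butyrate only. Gata1 was lower (−0.16 ± 0.06), and Cd68 (0.08) and Hbb-y (−0.01) did not pass. Ptprc, Spi1, Tyrobp and Hba-x were too dim to test.

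Beta chains moved in both directions. Itgb1, the partner of most alpha chains including that of Itga11, had log2 levels of 11.39, 11.42, 11.36 and 11.46 in butyrate and 10.07, 10.01, 10.02 and 10.02 in LIF. Each group spanned at most 0.1 log2 units, and Itgb1 was 2.59-fold higher (log2 ratio 1.38 ± 0.06, adjusted p = 4.92e-08). Its main probe is printed as 10 spots on each array, whose ratios had an SD of 0.04 to 0.05 within an array, and a second probe gave 1.23. Genes of chromosome 8, which holds Itgb1, had a median log2 ratio of 0.29, and with that taken off the ratio of Itgb1 was 1.09.

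Itgb7 encodes the beta chain of the gut-homing receptors, which pairs with the alpha chains of Itga4 and Itgae. It was the member with the largest decrease. Its log2 levels were 9.97, 10.07, 10.08 and 10.06 in butyrate, against 11.59, 11.53, 11.58 and 11.65 in LIF. Itgb7 was 2.91-fold lower in butyrate (log2 ratio −1.54 ± 0.07, adjusted p = 4.24e-08), below LIF on every array. Without loess, on arrays centred on their median, its ratio was −0.95, where the median of all genes was 0.40. Of its known partners, Itgae was 1.20-fold higher, a call that was lost with the chromosome median taken off, and Itga4 was too dim to test.

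Of the remaining beta chains 4 were higher. Itgb4, the hemidesmosome chain that joins Itga6, had a log2 ratio of 0.84 ± 0.05, with 0.80 and 0.14 on its other probes. Itgb3, which joins Itgav, had 0.76 ± 0.10 on its brightest probe and 1.47 on the other, a probe designed on another transcript record. Itgb5, a further partner of Itgav in binding vitronectin, had 0.53 ± 0.04. Itgb8, whose receptor with Itgav activates latent TGF-beta, was dim, at 6.80 ± 0.06 in butyrate and 6.50 ± 0.08 in LIF, with a log2 ratio of 0.30 ± 0.12. Itgb2, the leukocyte beta chain, did not pass, with a log2 ratio of 0.03 and a 95% interval from −0.06 to 0.11, and Itgb6, an epithelial chain, was not tested.

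Of the 5 laminin alpha chains, 3 were higher, 1 did not pass and 1 was not tested, and none changed by 2-fold. Lama1, the alpha chain of the laminin of the early embryo and of parietal endoderm, had log2 levels of 9, 8.95, 8.86 and 8.73 in butyrate, against 8.57, 8.47, 8.65 and 8.60 in LIF. The groups did not overlap, but the lowest butyrate sample lay only 0.08 above the highest LIF sample. Lama1 was 1.24-fold higher (log2 ratio 0.31 ± 0.17, adjusted p = 0.00197), with 0.43, 0.48, 0.21 and 0.13 on arrays 1 to 4, and its second probe gave 0.14. It passed under each alternative run, with ratios from 0.22 with a mean over its probes to 0.85 with median centring. The median of all genes was 0.40 with median centring. Lama4, a chain of blood vessel and muscle laminins, had log2 levels of 7.15, 7.17, 7.27 and 7.17 in butyrate and 6.67, 6.93, 6.63 and 6.72 in LIF. Its log2 ratio was 0.46 ± 0.16 (adjusted p = 0.000185), and it was 0.18 and 0.33 on its other tested probes.

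Lama3 encodes the alpha chain of the laminin that anchors the epidermis. Its log2 ratio was 0.28 ± 0.06, and a second probe that did not pass gave 0.03. Lama5, the most widespread alpha chain in the embryo, was bright and did not pass: its log2 levels were 11.15, 11.28, 11.15 and 11.47 in butyrate and 11.15, 11, 11.21 and 11.61 in LIF. The groups overlapped, and the 95% interval of its log2 ratio ran from −0.13 to 0.17. With median centring in place of loess Lama5 passed, at 0.61 (adjusted p = 0.0279), where the median of all genes was 0.40. Lama2, the chain of muscle laminin, was not tested.

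Both laminin beta chains under their present names were higher. Lamb2, a chain of the kidney filter and the neuromuscular junction, had log2 levels of 9.73, 9.73, 9.65 and 9.71 in butyrate and 9.26, 9.16, 9.1 and 9.21 in LIF. Its log2 ratio was 0.52 ± 0.05, a 1.44-fold increase (adjusted p = 4.29e-06). Lamb3, the beta chain that joins Lama3 in the laminin of the epidermis, had a log2 ratio of 0.31 ± 0.08. Lamb1 stands on the array under an older name that the rule does not take, and its log2 ratio was 0.81 ± 0.20 (adjusted p = 1.67e-05).

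Lamc1, the gamma chain of most laminins, was 1.48-fold higher in butyrate (log2 ratio 0.57 ± 0.16, adjusted p = 4.63e-05). Its log2 levels were 12.97, 12.93, 12.92 and 13.07 in butyrate and 12.39, 12.15, 12.44 and 12.65 in LIF. The groups did not overlap, and the LIF samples were the more spread. Lamc3, a further gamma chain, was dim and did not pass, at 6.48 ± 0.03 in butyrate and 6.51 ± 0.05 in LIF. The chains known to form the early embryonic laminin together had log2 ratios of 0.31 (Lama1), 0.81 (Lamb1) and 0.57 (Lamc1).

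Probes of 1 member rarely went apart. Of 83 member probes 47 were tested, of which 35 were higher and 5 lower, and 2 of the 5 were of Itgb4bp. Over all genes tested, counted by gene and not by probe, 41.7% were higher and 33.3% lower. Among 14 members with several tested probes, none had probes that passed in opposite directions. Itgal had 1 probe that did not pass and 1 that was lower (−0.13). Itgb4bp, which is no integrin chain, did not pass on its brightest probe (log2 ratio 0, 95% interval −0.08 to 0.08), and its other probes were lower, at −0.48 and −0.22.

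The sizes of the members' ratios depended on the scaling of the arrays. At least 2-fold increases were found for 9 members in the scanner software's log ratios, where Itga7 (1.65), Itgb8 (1.23), Lama4 (1.22), Itga8 (1.03) and Itga5 (1.02) were also past 2-fold. They were found for 12 members with median centring, under which the median of all genes was 0.40. Of all genes called, 92.4% were then on the higher side, compared with 55.6% with loess. Relative to the median of all genes under the same scaling, 21 of 28 tested members lay above it with loess, 21 with the scanner software's ratios, 21 with the authors' value table and 22 with median centring. Itgal and Itgb2, which did not pass with loess, were lower in the scanner software's ratios (−0.37 and −0.23) and in the authors' value table (−0.38 and −0.24).

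**Figure D4:**
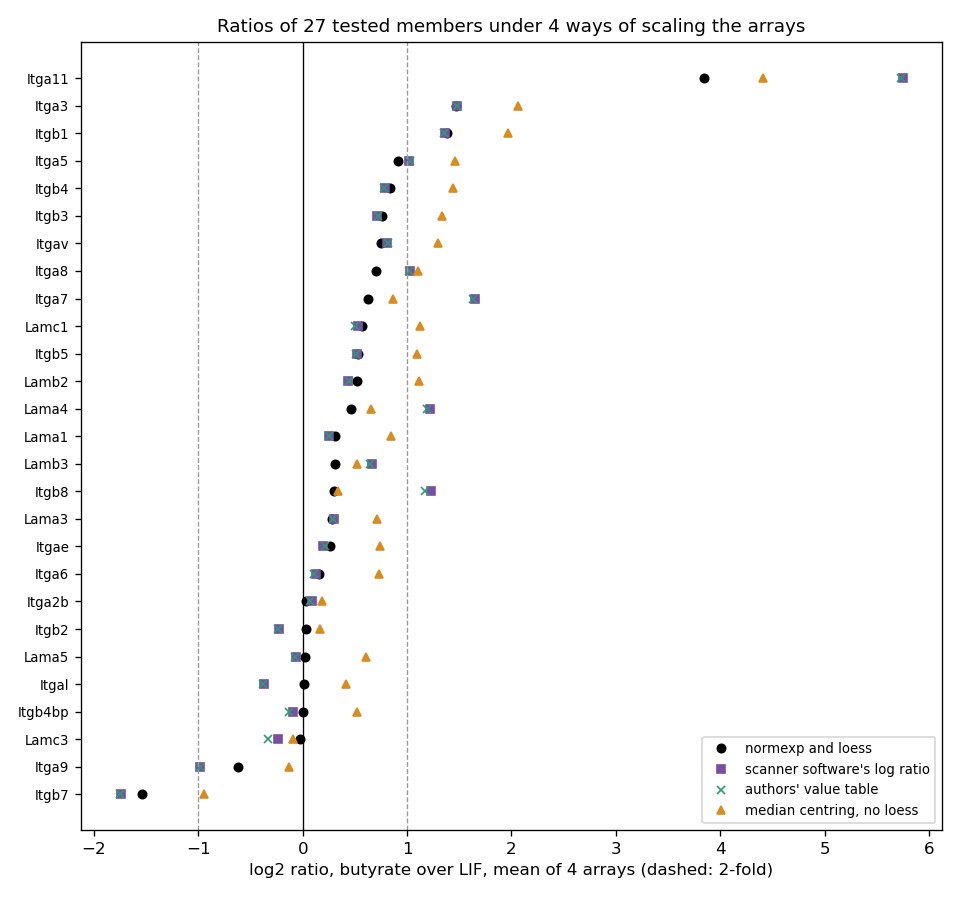
Mean log2 ratio of butyrate over LIF (x axis) of 27 tested members (rows, from the highest to the lowest with loess) under 4 ways of scaling the arrays, with dashed lines at 2-fold. Median centring lies right of loess for each member except Lamc3, and for Itga11 the scanner software's ratio and the authors' value table give 5.75 and 5.73, compared with 3.84 with loess.

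Genes whose products meet the integrins and laminins were read from 4 lists chosen with earlier results of these data known. Their counts stand beside 41.7% higher and 33.3% lower over all genes tested. Of 23 other integrin ligands tested, 17 were higher and 2 lower, with a median log2 ratio of 0.68. Of the 17, Tnc and Col6a1 entered the test through butyrate only, and of the other 20 tested 15 were higher and 2 lower. Col1a1 and Postn, which encode a type I collagen chain and periostin, had the largest increases, at log2 ratios of 4.15 ± 0.16 and 3.22 ± 0.47, followed by Thbs1 (thrombospondin, 2.75 ± 0.11) and Ccn2 (a matrix-associated growth factor, 2.18 ± 0.04). Spp1, the ligand osteopontin, fell, with a log2 ratio of −1.82 ± 0.03. Of 34 adhesion complex proteins, most on the inner side of the membrane and some, such as the tetraspanin Cd9, within it, 24 were higher and 5 lower, with a median of 0.43. Zyx (zyxin, 2.13 ± 0.07), Tgfb1i1 (Hic-5, 1.44 ± 0.10) and Lims2 (a partner of integrin-linked kinase, 1.38 ± 0.23) had the largest increases, and Parvb (an actin-binding parvin, −1.25 ± 0.18) the largest decrease.

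Basement membrane partners were more divided. Of 18 tested, 9 were higher and 5 lower, with a median log2 ratio of 0.15, where 41.7% of all genes were higher and 33.3% lower. Col4a5, 1 of the 9, entered the test through butyrate only, and 1 of the 18 entered through LIF only. The 9 include Lamb1, itself a laminin chain. The type IV collagen chains Col4a1 (2.70 ± 0.11) and Col4a2 (2.31 ± 0.07) led the increases, with Tinagl1, a matrix protein that binds laminin, at 1.57 ± 0.20 and Pxdn, the peroxidase that links type IV collagen, at 1.29 ± 0.04. Nid1 and Nid2, the nidogens that tie laminin to collagen, went in opposite directions, with log2 ratios of 0.90 ± 0.16 and −0.37 ± 0.11. The last list held laminin receptors other than integrins and proteins that act with them, such as sarcoglycans, dystrophin and utrophin. Of its 11 tested genes, 7 were higher and 3 lower, with a median of 0.24. Among the 3 lower, Bcam (−0.43) is itself a receptor. Sgce, a sarcoglycan, was higher at 2.05 ± 0.05 and Sdc2, a syndecan, at 1.13 ± 0.14, with Sdc1, a further syndecan, at 0.55 ± 0.08, while Dmd, which encodes dystrophin, was lower at −1.20 ± 0.14.

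**Figure D5:**
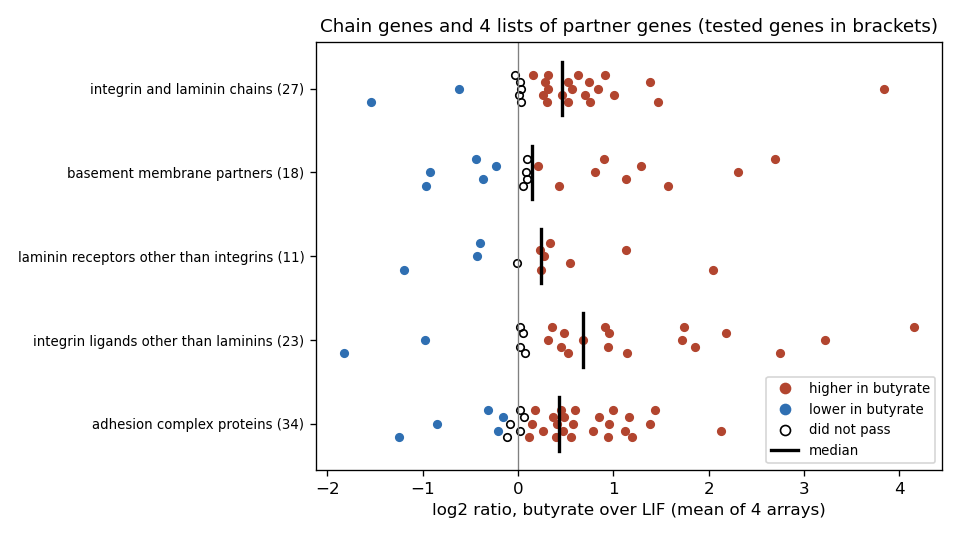
Log2 ratios of butyrate over LIF (x axis) for the 27 tested integrin and laminin chains and for 4 lists of partner genes (rows, with the number tested in brackets), with 1 point for each gene, coloured by call, and a bar at the list's median. The medians are 0.46 for the chains, 0.15 for basement membrane partners, 0.24 for laminin receptors other than integrins, 0.68 for other ligands and 0.43 for adhesion complex proteins. The row of laminin receptors also holds sarcoglycans, dystrophin and utrophin, and that of basement membrane partners holds the laminin chain Lamb1.

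Markers of several other cell types also differed between the groups, those of fibroblasts, trophoblast and endoderm mostly higher in butyrate. Among all genes tested, 41.7% were higher and 33.3% lower. Of 14 fibroblast markers 12 were tested, 10 of them higher and 2 (Thy1 and Twist1) lower in butyrate, and their summed intensity was 23856 to 25101 in butyrate and 7494 to 8143 in LIF. Vim, the brightest in both groups, at mean log2 levels of 13.61 in butyrate and 12.3 in LIF, weighs most in that sum. Col1a1 came next in butyrate, at 12.72. Lum and Fap, markers of the same cells, were too dim to test in either group, and Dcn was not well above background in LIF on any array, nor were Elf5, Afp, Lyz2 and Cdh5 of the lists that follow, all counted as higher. All 14 tested trophoblast markers were higher, with a median log2 ratio of 2.17 and a summed intensity of 141144 to 146210 in butyrate and 35407 to 39064 in LIF. Krt8 and Krt18, saturated in butyrate, carry most of that sum, which without them was 38846 to 42690 in butyrate and 8416 to 9390 in LIF. Of 13 tested markers of parietal and primitive endoderm, 10 were higher and 2 lower, with sums of 3821 to 3964 in butyrate and 2177 to 2490 in LIF. Of 10 pluripotency markers 8 were lower and 1, Nanog, was higher (0.23 ± 0.05), with sums of 112658 to 123522 in butyrate and 170897 to 180446 in LIF, and all 10 were well above background on every LIF array. Without Dppa5a, which was saturated in both groups, the sums were 60965 to 68619 in butyrate and 92233 to 96738 in LIF. The summed intensity of the 7 tested blood cell markers was 1949 to 2199 in butyrate and 1426 to 1595 in LIF. Of 8 tested endothelial markers 2 were higher and 4 lower, with a median log2 ratio of −0.15: Flt1 was higher (2.07 ± 0.14), while Vwf (−1.59 ± 0.27) and Cldn5 (−0.72 ± 0.12) were among the lower ones, and the sums were 2672 to 2813 in butyrate and 2124 to 2520 in LIF. The part of such cells in the ratios of Itga11, Itgb1, Lama1 and the other members was not tested.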

How the data were processed

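The 4 distinct deposited scanner files give an intensity for each spot and channel, read with Agilent Feature Extraction 9.1 per the submitters' processing notes. Per the file headers, that software subtracted the background and normalized the dyes to give a processed signal and a log10 ratio, Cy5 over Cy3. The authors' deposited value table holds log2 values, and the correlation of a column with the log2 processed signal of its channel was at least 0.9996. Its columns all had a median of 6.487, and the sources used here do not say how they were scaled.

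Background was corrected from the mean signal and median background by normexp with an offset of 50, which understates folds of dim genes, and loess within each array followed, with weight 0 for control spots (limma 3.58.1, R 4.3.3). Of 45018 spots per array 43379 were not controls, and 14 outlier spots were set to missing. Of 41174 probes, 25662 well above background on at least 3 of 4 arrays in either channel were tested. The median signal was 110 to 111 in butyrate and 62.8 to 66.0 in LIF, and 62.7% to 63.9% and 57.9% to 61.2% of spots were well above background. The number of arrays limits the precision.

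A gene is its brightest tested probe, named through accession (22951 probes), symbol (6659) or synonym (3109) in the RefSeq table of GRCm38.p6, and 8455 probes kept the file's name. limma's lmFit and eBayes tested the 4 log2 ratios against 0, and p-values were adjusted by Benjamini-Hochberg over 17191 genes. The ratio takes the shared array out as a block. Samples of the same number deviated together from their group means, with correlations of 0.158 to 0.306, against −0.214 to 0.101 for other numbers, and a shared array and paired cultures cannot be told apart here. The fit and the adjustment of p-values, but not the steps before them, were tested on simulated log2 ratios. matplotlib 3.10.9 (Python 3.11.15) drew the figures.

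The members and the gene lists were chosen with earlier results of these data known. Values by sample are given for Itga11, Lama1, members that passed at 2-fold or more and the member with the largest change that passed in each role, and up to 4 genes of each partner list with the largest change that passed. Spp1, Nid1, Nid2, Lamb1 and the cell type markers were named, and Lama5 and Lamc1 were given by sample, after their values were seen. Alternatives were other background corrections, scalings, filters, ways to combine probes, variance models and blocks, each array left out, the authors' table, and the median of chromosomes 8, 11 and 19 taken off. 1 result the rule picks is not reported here.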

Additional observations from a re-analysis of the deposited data

Results flagged for a closer look

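In 6 of 84 sets of 4 values from tested members, the lowest or highest value stood apart from the other 3 by more than Dixon's test allows at the 95% level, and chance alone flags about 1 in 20. The ratio of Itga11 on array 2 was 3.02, with 4.01 to 4.2 on the others, and the LIF level of Lamb3 on array 2 was 6.98, with 6.82 to 6.83. On array 1 the butyrate level of Itgae was 8.34, where the others were at 8.26, the LIF level of Itgb1 was 10.07, with 10.01 to 10.02, and the ratio of Lamc3 was −0.09, with −0.02 to −0.01. The butyrate level of Itgb4 on array 3 was 10.21, with 10.34 to 10.35 on the others. For these genes other than Itga11 the gap to the nearest other value was at most 0.15 log2 units.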

How the results depend on the processing

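Over the alternatives run, 461 of the members' ratios kept their call, 3 lost it, 5 gained one and 6 turned with a call. These 6 had not passed in the main run and passed with the other sign, so that no called direction was reversed. Of the 461, 5 changed sign as printed without passing in either setting, all of Itgal, Itgb2 or Lama5, at −0.05 to −0.07. With the scanner software's log ratio 4 members were lower and 9 at least 2-fold higher, and Itgal (−0.37) and Itgb2 (−0.23) turned. With the authors' deposited values 6 members were lower and 9 at least 2-fold higher, and the same genes turned (−0.38 and −0.24). With median centring 1 member was lower, 12 were at least 2-fold higher and 0 at least 2-fold lower. Itgb4bp turned (0.52) under that setting, where the median of all genes was 0.40. With the chromosome median taken off, Itga2b turned (−0.17). The cause was not tested. The number of members higher ranged from 19 to 23. Leaving out each array in turn gave 20 higher and 2 lower each time, 3 to 4 at least 2-fold higher, and 11564 to 12803 genes that passed in all. With no replicate block (channel levels without the array) 12506 genes and 20 and 2 members passed. With a random replicate block 12948 genes passed, at a consensus correlation of 0.179. The pairing changed no call of a member. Limits are the single dye orientation, 1 slide, the unnamed origin of the replicates and dim probes, whose ratios differ most between background corrections.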

Other observations

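A pair of probe names outside the name rule belong to member genes as synonyms in the RefSeq table. The probe named 6720458D17Rik, assigned to Itga9, had a log2 ratio of −0.48 ± 0.12 (SD, n = 4 arrays, adjusted p = 4.2e-05 in limma's fit over probes), next to −0.62 ± 0.12 on the Itga9 probe of the report. Both probes named D430040G12Rik, assigned to Itgav, were too dim to test.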
